A study of Mus musculus with 14 samples.

Results

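Medium spiny neurons are the principal neurons of the striatum, and 9 genes named for them were followed here: Drd1, Pdyn and Tac1 of the direct pathway, Drd2, Penk and Adora2a of the indirect pathway, and Ppp1r1b, Adcy5 and Pde10a, which both kinds of neuron use. The members were taken by symbol, with every probe set (the group of probes that reports 1 transcript) annotated to that symbol. The annotation listed 17 probe sets for 8 of the 9 genes, among 45101 probe sets and 18193 named genes in all, and none for Adora2a, which encodes an adenosine receptor. The 17 comprised 5 for Pde10a, 4 for Adcy5, 2 each for Drd1 and Tac1, and 1 each for Pdyn, Drd2, Penk and Ppp1r1b. Of the 8 measured genes, 3 belonged to the direct pathway, 2 to the indirect pathway and 3 to both.

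RNA was measured in brain, labelled as whole brain, and in vastus lateralis muscle. The mutant mice, named PWS-IC del, lacked the imprinting center of the Prader-Willi region, and the controls were wild-type littermates of matched age. All were F1 hybrids of FVB and B6. This center controls the parent-specific expression of an imprinted gene domain, and mice and patients that lack its paternal activity lose the domain's paternally expressed genes. Each of the 14 samples, which the labels call biological replicas, had its own Affymetrix mouse genome expression array, with 4 wild-type and 3 PWS-IC del arrays per tissue. The sources used here do not give the age, the sex or the parent that transmitted the deletion, nor which animals shared a litter.

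Direct pathway neurons carry the dopamine D1 receptor, which stimulates cAMP synthesis, release substance P and dynorphin, and project to the output nuclei of the basal ganglia. Indirect pathway neurons carry the dopamine D2 receptor, which restrains cAMP synthesis, and the adenosine receptor that Adora2a encodes, release enkephalin, and project to the external globus pallidus. Adenylyl cyclase 5 makes most of the cAMP of striatal neurons, phosphodiesterase 10A breaks it down, and DARPP-32, the product of Ppp1r1b, inhibits protein phosphatase 1 once protein kinase A has phosphorylated it.

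The promoters of 4 members are shown because these genes moved together over the brain arrays, as described below, while lying on different chromosomes. RefSeq's promoter table (GRCm38.p6) had an entry for 6 of the 9 members, and for these 4 an entry began at least 200 bases before the gene's outermost start. Each line gives the bases before that start, 5′ to 3′ on the gene's strand, and capitals mark motif matches on either strand.
Drd1 (chr13:54055659-54055908, minus strand): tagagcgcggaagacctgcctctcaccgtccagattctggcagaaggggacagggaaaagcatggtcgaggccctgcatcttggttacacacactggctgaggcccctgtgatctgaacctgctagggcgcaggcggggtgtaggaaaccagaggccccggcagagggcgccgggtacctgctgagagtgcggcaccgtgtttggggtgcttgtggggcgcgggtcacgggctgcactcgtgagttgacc
Pdyn (chr2:129699939-129700188, minus strand): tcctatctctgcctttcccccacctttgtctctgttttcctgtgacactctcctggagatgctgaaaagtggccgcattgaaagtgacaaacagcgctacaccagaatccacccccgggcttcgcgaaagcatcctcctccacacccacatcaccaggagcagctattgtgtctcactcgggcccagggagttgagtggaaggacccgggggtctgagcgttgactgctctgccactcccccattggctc
Tac1 (chr6:7554811-7555060, plus strand): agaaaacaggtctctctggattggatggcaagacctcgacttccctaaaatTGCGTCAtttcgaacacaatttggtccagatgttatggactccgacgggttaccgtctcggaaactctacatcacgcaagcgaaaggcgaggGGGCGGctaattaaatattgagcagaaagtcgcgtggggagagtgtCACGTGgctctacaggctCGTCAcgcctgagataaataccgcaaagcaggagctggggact
Drd2 (chr9:49340153-49340359, plus strand): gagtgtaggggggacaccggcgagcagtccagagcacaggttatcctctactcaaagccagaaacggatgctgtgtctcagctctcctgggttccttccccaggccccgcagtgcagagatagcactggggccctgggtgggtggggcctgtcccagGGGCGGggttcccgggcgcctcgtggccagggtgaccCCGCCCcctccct
The search covered the cAMP response element TGACGTCA, the variant TGCGTCA, the short element TGACG, the E-box CACGTG and the GC box GGGCGG. In Tac1 it found TGCGTCA, which overlaps a match to TGACG, a second match to TGACG, an E-box and a GC box. Over the 250 bases before the start of all 32851 table entries, 1.75% held TGCGTCA, 17.8% TGACG, 6.02% an E-box and 32.7% a GC box. The Drd2 stretch of 207 bases held 2 GC boxes, a motif found in 26.0% of entries over the first 207 of those 250 bases. No match to any of these letters was found in the Drd1 and Pdyn stretches, and the full element TGACGTCA, held by 1.55% of entries, matched in none of the 4. Their GC content was 64% for Drd1, 57.2% for Pdyn, 51.2% for Tac1 and 67.6% for Drd2, against a median of 52.4% over all entries.

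Values were taken as log2(intensity + 16), called the level here, and genotype differences subtract the wild-type mean from the PWS-IC del mean. The labels held for the deleted domain, with the level of Snrpn at 10.29 to 10.64 in wild-type brain and 5.03 to 6.48 in PWS-IC del brain. The brain arrays were not uniform. Wild-type 1 and wild-type 2 stood apart on the first principal component of the brain arrays, at 36.5 and 22.6 against -25.9 to 7.15 in the others, and this component held 51.9% of the variance. Wild-type 1 and wild-type 3 carried skeletal muscle transcripts, and wild-type 3 carried pituitary ones. Results that rest on these arrays are therefore given with and without them.

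The brain samples expressed all 8 measured genes above the level read in muscle, a tissue with no striatal neurons that serves as background. In wild-type mice each of the 8 was higher in brain, by 2.38 ± 0.30 (SE) for Pdyn to 4.85 ± 0.44 for Ppp1r1b (limma, adjusted p = 3.21e-05 and 2.29e-06), with 4 arrays of each tissue and no overlap between them. Across all tested genes 82.6% passed this test and 60.2% were higher in brain, so the count of 8 of 8 is to be read against a high background. Among the 17 probe sets 15 were higher in brain, where the share over all probe sets was 53.5%, and 1 was lower, against 15.4% overall. The lower one was the second Tac1 probe set (1431883_at), at 6.71 ± 0.25 (SD, n = 4) in wild-type brain and 7.54 ± 0.07 (SD, n = 4) in wild-type muscle. Its r with the first Tac1 probe set over the 7 brain arrays was 0.14 (rho = 0). The probe set not called in either direction was the Pde10a probe set 1432490_a_at (adjusted p = 0.162).

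**Figure D1:**
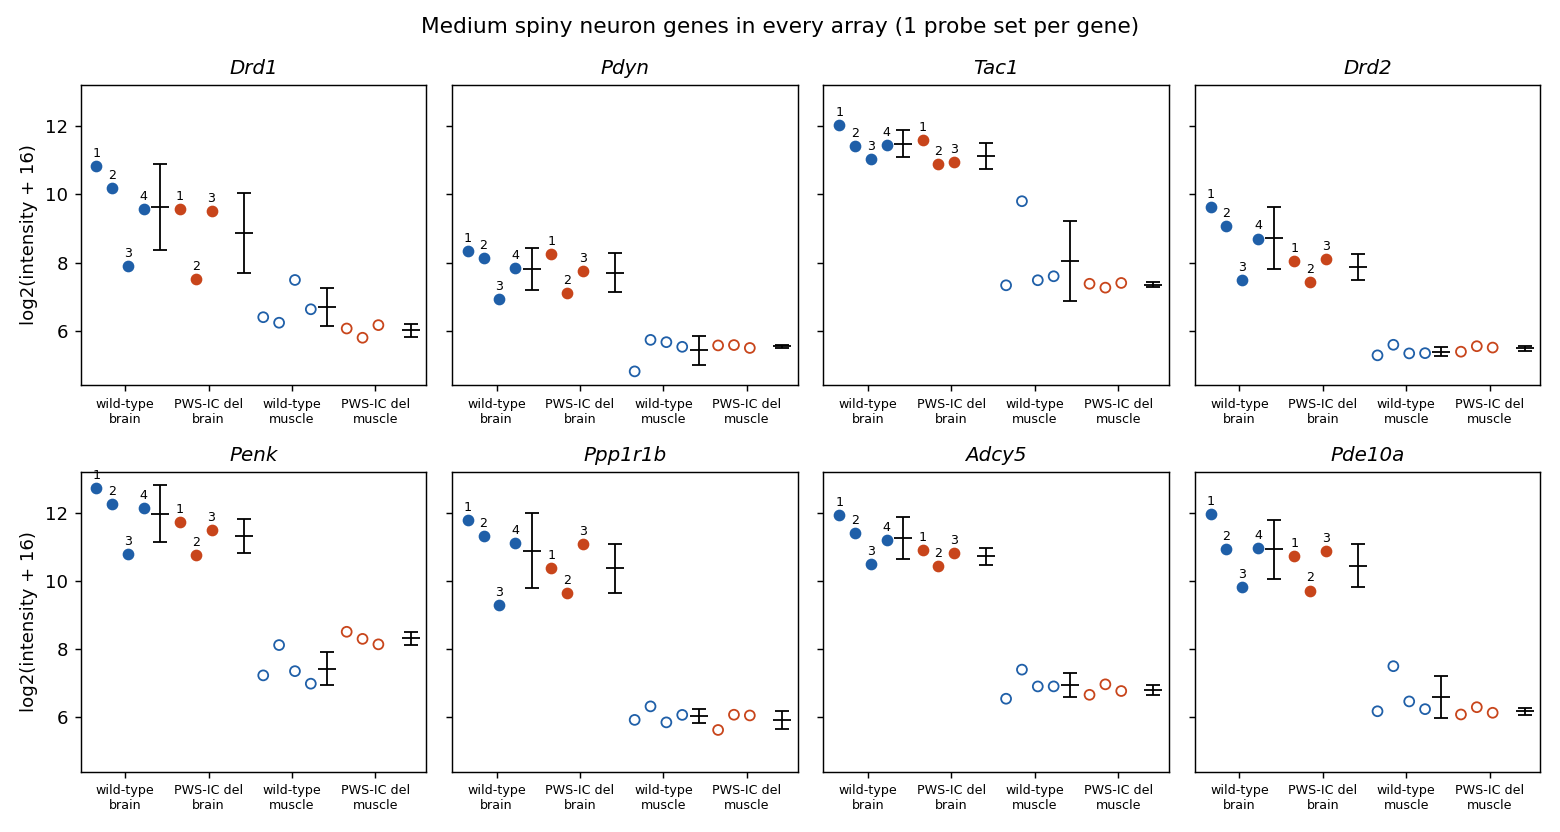
Level, as log2(intensity + 16), of the 8 measured genes in each of the 14 arrays, with the mean and SD of each group beside its points (4 wild-type and 3 PWS-IC del arrays per tissue) and replicate numbers printed on the brain points. Wild-type 1 is the highest brain array for all 8 genes. PWS-IC del 2 is among the lowest pair for all 8 and wild-type 3 for 7 of 8, and the genotypes overlap for every gene in brain.

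Direct pathway genes were read first. Drd1, the D1 receptor gene, had levels of 10.83, 10.20, 7.90 and 9.58 in wild-type brain 1 to 4 and of 9.57, 7.51 and 9.52 in PWS-IC del brain 1 to 3. The groups overlapped, with wild-type 3 and PWS-IC del 2 far below the other 5 arrays. The difference was -0.76 ± 0.71 (SE; 95% interval -2.38 to 0.86; limma adjusted p = 0.669). Its second probe set (1455629_at) gave 10.53, 10.14, 7.45 and 9.44 against 9.30, 7.34 and 9.40, the same low pair in the same places. The highest and lowest Drd1 levels were 9.98-fold apart on the log2(intensity + 16) scale, and those of the second probe set 9.11-fold. On the chosen probe set the lowest brain level, 7.51, nearly met the highest muscle level, 7.49. On the second probe set muscle lay at 4.00 to 4.70, below the lowest brain level of 7.34.

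Pdyn, which encodes the precursor of the dynorphin opioid peptides, had levels of 8.33, 8.13, 6.92 and 7.84 in wild-type brain and 8.24, 7.10 and 7.75 in PWS-IC del brain. Here PWS-IC del 1 was the second highest of the 7 arrays, and the low pair was again wild-type 3 and PWS-IC del 2. The difference was -0.11 ± 0.36 (adjusted p = 0.907). Tac1, which encodes the precursor of substance P and neurokinin A, had levels of 12.04, 11.43, 11.05 and 11.46 in wild-type and 11.59, 10.88 and 10.94 in PWS-IC del brain. For Tac1 the range was the narrowest of the 8 genes, at 2.23-fold, and PWS-IC del 3 took the place of wild-type 3 among the lowest pair. Its difference was -0.36 ± 0.25 (adjusted p = 0.596).

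Indirect pathway genes showed a like order of arrays. Drd2, the D2 receptor gene, had levels of 9.64, 9.08, 7.48 and 8.71 in wild-type brain and 8.05, 7.42 and 8.10 in PWS-IC del brain. Wild-type 1, 2 and 4 lay above all mutants, while wild-type 3 lay next to the lowest mutant. The difference of -0.87 ± 0.44 was the largest of the 8 genes (95% interval -1.87 to 0.13; adjusted p = 0.556, unadjusted p = 0.0803). Penk, which encodes the precursor of the enkephalins, had levels of 12.74, 12.27, 10.81 and 12.15 against 11.73, 10.76 and 11.51. As for Drd2, wild-type 3 alone of the wild-type arrays fell among the mutants. The difference for Penk was -0.66 ± 0.42 (adjusted p = 0.584).

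The genes of cAMP signalling that both neurons share followed the same arrays. Ppp1r1b had levels of 11.81, 11.34, 9.30 and 11.12 in wild-type and 10.39, 9.66 and 11.09 in PWS-IC del brain. Its lowest array was wild-type 3, and its difference was -0.51 ± 0.56 (adjusted p = 0.713). Adcy5 had levels of 11.96, 11.43, 10.50 and 11.20 against 10.91, 10.46 and 10.83, a difference of -0.54 ± 0.30 (adjusted p = 0.566). Pde10a had levels of 11.97, 10.96, 9.82 and 10.99 against 10.75, 9.73 and 10.89, a difference of -0.48 ± 0.46 (adjusted p = 0.678). In all 3 of these genes the low pair was wild-type 3 and PWS-IC del 2 and the highest array was wild-type 1.

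Probe sets of 1 gene did not all repeat this order. For Pde10a, the 4 other probe sets had r of 0.83 to 0.96 with the chosen one over the 7 arrays. One of them, 1432490_a_at, was at 9.40 in wild-type 1 against 5.43 to 6.71 on the remaining 6 arrays. For Adcy5 the probe set 1447696_x_at followed the chosen one (r = 1.00, rho = 1), while 1443080_at (r = 0.49, rho = 0.54) spanned 6.17 to 6.63. The remaining Adcy5 probe set, 1439829_at, spanned 6.55 to 7.12 and ran the other way (r = -0.77, rho = -0.86). Both of these probe sets were higher in brain than in muscle, by 0.68 ± 0.11 and 0.92 ± 0.14 in wild-type mice.

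In the comparison of genotypes in brain, 0 of the 8 genes passed the adjusted threshold, where 0.066% of the 13645 tested genes did, and 0 had an unadjusted p under 0.05, where 8.2% of tested genes did. In 0 of the 8 did the genotypes lie apart without overlap, against 8.66% of tested genes. All 8 differences were below 0, with a median of -0.53, while the median over all tested genes was 0.06 and 38.1% of genes were below 0. Pairs of members had a median r of 0.92 over these same arrays, so the signs of genes or of probe sets are not independent counts. Among the probe sets 17 of 17 were below 0, from -1.05 to -0.01, where 51.4% of all probe sets were, and 0 passed the adjusted threshold, where 0.0622% of all did. The -1.05 was that of Pde10a 1432490_a_at, not called above muscle and set apart by wild-type 1 at 9.40. The -0.01 was that of Adcy5 1439829_at, which ran against the chosen probe set. Tac1 1431883_at, at -0.15, was lower in brain than in muscle. In brain samples, fewer cells of a type and less RNA per cell cannot be told apart. Without wild-type 1 and 2, 4 of the 8 genes were below 0, with a median of -0.03, and 10 of the 17 probe sets were. The members' mean was highest in these arrays, with deviations of 1.05 and 0.49, so leaving both out lowers the wild-type mean. That fit is therefore no independent check of the differences. Without wild-type 3 and PWS-IC del 2, the low pair, all 8 were below 0 with a median of -0.66, and Drd2 was at -1.06 ± 0.26. This pair was picked by the members' own levels, as the lowest array of each genotype, so the SE of that fit can understate the spread. After quantile normalization or median centring 16 of the 17 probe sets and all 8 genes were below 0. Without the low pair the smallest adjusted p of the 8 was 0.918.

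The differences were also computed with the mean of 21 further medium spiny neuron genes as a covariate. That mean had an r of 0.97 with the members' mean, so the fit takes out most of what the members share, whatever its source, and gives what is left of each gene. In it 4 of the 8 members were below 0 and 4 above, with a median of -0.05. Drd2 was at -0.34 ± 0.13, Adcy5 at -0.19 ± 0.13, Penk at -0.17 ± 0.17 and Tac1 at -0.15 ± 0.20. Drd1 was at 0.078 ± 0.25, Pde10a at 0.056 ± 0.19, Ppp1r1b at 0.16 ± 0.18 and Pdyn at 0.28 ± 0.19. The smallest adjusted p among them was 0.745, for Drd2.

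**Figure D2:**
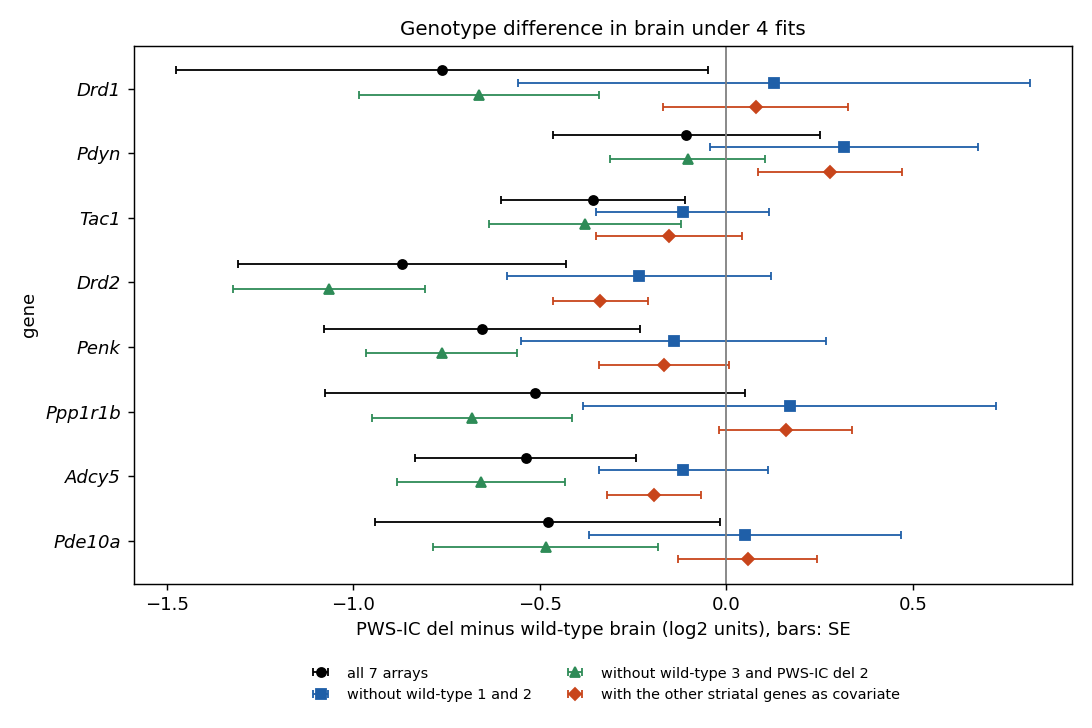
PWS-IC del minus wild-type brain, in log2 units with SE bars, for the 8 genes in 4 limma fits: all 7 arrays, without wild-type 1 and 2, without wild-type 3 and PWS-IC del 2, and with the mean of 21 other striatal genes as a covariate. All 8 points lie below 0 with all arrays, and 4 of 8 do so without wild-type 1 and 2 or with the covariate. Wild-type 3 and PWS-IC del 2 were picked by the members' own levels, so the bars of the fit without them can understate the spread. Wild-type 1 and 2 had the highest means of the members, so leaving them out lowers the wild-type mean.

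The members varied far more between arrays than most genes. Over the 7 brain arrays the SD was 1.19 for Drd1, 0.92 for Ppp1r1b and 0.83 for Drd2, and 0.41 for Tac1, the least variable member. The median SD was 0.75 over the 8 members and 0.18 over all tested genes. Only 0.498% of tested genes had a larger SD than Drd1, and 6.29% had a larger one than Tac1. This spread lay within the genotypes as well as between them. The difference between genotype means held 31.6% of the variance over the 7 arrays for Drd2, 28.9% for Adcy5 and 1.08% for Pdyn. The median of that share was 16.5% over the members and 17.4% over all tested genes. Within wild-type brain the median SD of the members was 0.85, and within PWS-IC del brain it was 0.54.

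The arrays fell in nearly 1 order whichever member was read. Wild-type 1 was the highest array for 8 of 8 genes. PWS-IC del 2 was among the lowest pair for 8 of 8 and wild-type 3 for 7 of 8, and one of them was the lowest for each gene (6 and 2 genes). As a mean over the 8 members, deviations from the mean of the 7 arrays were 1.05, 0.49, -0.89 and 0.27 in wild-type 1 to 4 and 0.04, -0.92 and -0.03 in PWS-IC del 1 to 3. PWS-IC del 1 and 3 thus lay between wild-type 3 and wild-type 4. PWS-IC del 2 was below every wild-type array for 6 of the 8 genes, PWS-IC del 3 for 1 and PWS-IC del 1 for 0.

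Pairs of members correlated positively over the 7 brain arrays. Pearson's r over the 28 pairs of the 8 genes ran from 0.67, for Tac1 and Ppp1r1b, to 0.99, for Drd2 and Adcy5, with a median of 0.92, and Spearman's rho had a median of 0.93. These are descriptions over 7 arrays, in which all pairs share the same samples, and no p is given. Taken as deviations from the mean of each genotype, the median r was 0.94. It was 0.88 without wild-type 1 and 2, and 0.86 without wild-type 1 and PWS-IC del 2, the arrays farthest from the median. The lowest pair then had r of 0.38 and 0.29. Each gene was also set against the mean of the other 7. Penk had the highest r with it, 0.99, and Tac1 the lowest, 0.83. For each log2 unit of that mean, Drd1 moved by 1.79, Ppp1r1b by 1.25, Drd2 by 1.13, Penk by 1.03 and Tac1 by 0.45.

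Direct and indirect pathway genes deviated in the same direction in 6 of the 7 brain arrays, PWS-IC del 1 being the exception. The direct pathway mean (Drd1, Pdyn and Tac1) was at 0.93, 0.45, -0.84 and 0.16 in wild-type 1 to 4 and at 0.33, -0.97 and -0.07 in PWS-IC del 1 to 3. The indirect pathway mean (Drd2 and Penk) was at 1.16, 0.64, -0.89 and 0.39 and at -0.14, -0.94 and -0.23. Indirect minus direct was therefore 0.23, 0.19, -0.04 and 0.23 in wild-type and -0.47, 0.03 and -0.16 in PWS-IC del arrays, and the groups overlapped at wild-type 3 and PWS-IC del 2. The difference of 1 receptor from the other gave a different order. Drd2 minus Drd1, as deviations, was -0.24, -0.18, 0.53 and 0.07 in wild-type and -0.57, 0.85 and -0.47 in PWS-IC del arrays. It was highest in the arrays where both receptors were lowest.

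**Figure D3:**
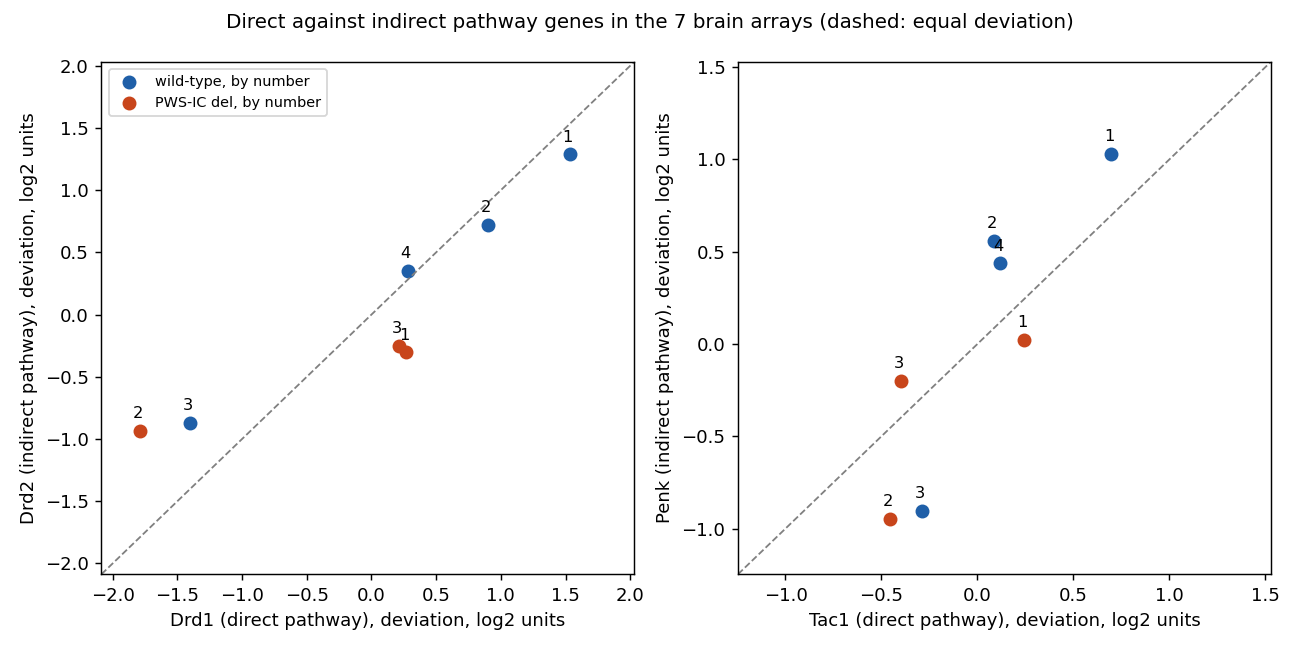
Deviation of each of the 7 brain arrays from the mean of all 7, in log2 units, for Drd2 against Drd1 (left) and Penk against Tac1 (right), with replicate numbers at the points and a dashed line where both deviate equally. Wild-type 1 lies at the top right and PWS-IC del 2 and wild-type 3 at the bottom left in both panels, and wild-type 1 and 2 and PWS-IC del 1 and 3 lie below the line for the receptors.

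Other genes of the same neurons were read as a list. Of 22 further medium spiny neuron genes, 21 were measured and tested, 0 passed in either direction, and 19 were below 0 with a median difference of -0.37. Those with the smallest p were Cnr1, the cannabinoid receptor gene, at 0.28 ± 0.10, Rasgrp2, a guanine nucleotide exchange factor, at -0.38 ± 0.17, Pde1b, a calmodulin-dependent phosphodiesterase, at -0.56 ± 0.28, and Gnal, the G protein subunit that links the D1 receptor to adenylyl cyclase, at -0.34 ± 0.18. The adjusted p was 0.556 for the first 3 and 0.566 for Gnal. The list mean stood at 0.71, 0.43, -0.59 and 0.04 in wild-type 1 to 4 and -0.14, -0.52 and 0.07 in PWS-IC del 1 to 3, high and low in the same arrays as the members' mean. Not every gene shared this order, and Cnr1 was highest in PWS-IC del 2, at 12.08. The r of the list mean with the members' mean was 0.97 (rho = 0.86), and 0.94 without the farthest pair of arrays.

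Smaller lists for each pathway were less uniform. Among 6 further direct pathway genes 5 were tested, 0 passed and 3 were below 0, with Slc35d3, a solute carrier of direct pathway neurons, at -0.84 ± 0.42, Isl1, a transcription factor, at -0.28 ± 0.53, Eya1 at 0.17 ± 0.10 and Sfxn1 at 0.13 ± 0.10. The median was -0.13 and the r of the list with the members was 0.47 (0.25 without the farthest pair). Of 6 further indirect pathway genes 4 were tested, 0 passed and 2 were below 0. The orphan receptor gene Gpr6 was at -0.47 ± 0.61, the transcription factor gene Six3 at -0.42 ± 0.29, Plxdc1 at 0.23 ± 0.17 and the kainate receptor gene Grik3 at 0.06 ± 0.15. Their median was -0.18 and the r with the members 0.97. Single genes of these lists differed in their order of arrays. Slc35d3 was lowest in wild-type 3 and PWS-IC del 2, at 7.06 and 6.84 against 7.47 to 9.04 elsewhere, and so was Gpr6, at 7.09 and 7.23 against 8.50 to 9.66. By contrast Plxdc1 was highest in PWS-IC del 2, at 9.52, and Isl1 was lowest in PWS-IC del 3, at 6.16. Ebf1, a transcription factor gene named after its values were seen, was highest in PWS-IC del 2, at 9.06. Wild-type 3 and wild-type 4 came next for Ebf1, at 8.56 and 8.54. The general dopamine and cAMP machinery, 22 genes of 22 tested, had 0 passing, 13 below 0 and a median of -0.02. Crem, which encodes a cAMP-responsive transcription factor, was at 0.46 ± 0.14 (adjusted p = 0.556). The list mean stayed within -0.14 to 0.11 in all 7 arrays. Within that small range its r with the members was 0.82 (rho = 0.71), and 0.92 without the farthest pair.

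The 13637 tested genes that are not members, listed genes included, were ranked by how closely their 7 brain levels followed the members' mean. The highest r was that of Ptpn5 (0.99), which encodes a striatum-enriched tyrosine phosphatase and was on the list above. Next came Klf16, a transcription factor gene, Ajap1, Gnb2, a G protein beta subunit gene, Smpd3, a sphingomyelinase gene, Gng7, Fbxl16, Smarcd1, a chromatin remodelling gene, Rgs9, which speeds the shutdown of dopamine receptor signals, and Ankrd63, at 0.98 to 0.99. Of these 10, Ptpn5, Gng7 and Rgs9 were on the list of further medium spiny neuron genes. Rgs9 spanned 7.83 in PWS-IC del 2 to 10.97 in wild-type 1, while Gnb2 spanned 11.67 in wild-type 3 to 12.16 in wild-type 1. The genotype differences of the 10 lay between -0.88 and -0.10, and 0 passed (adjusted p from 0.585 to 0.764). An r above 0.9 was reached by 153 of these genes, or 1.12%, and by 7 of the 8 members, each of which is itself part of the mean.

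Markers of other regions and tissues moved among the same brain arrays, and their part in the members' differences was not tested. No value on any array was at or below 0, so no marker was listed at 0. In each of the 22 lists 0 genes passed the adjusted threshold in brain. The mean of 7 pan-neuronal genes hardly moved, at -0.07 to 0.06 in each array. Single genes of that list moved in opposite directions. Eno2 was at 13.23 in wild-type 1 and 12.99 in wild-type 3, and Stmn2 at 12.45 and 12.82. Olfactory bulb genes, 5 measured, stood at 1.81 and 1.55 in wild-type 1 and 2 and at -0.93 to -0.42 in the other 5 arrays. Of 4 tested, 0 passed, with Cdhr1 at 10.36 and 10.11 in wild-type 1 and 2 against 6.81 to 8.32, Doc2g at 8.88 and 8.64 against 7.58 to 7.85, Sp8 at 8.85 and 8.47 against 5.69 to 6.92 and Eomes at 9.17 and 8.83 against 4.72 to 7.79. Summed on the linear scale, the log2 of the bulb genes ran from 8.81 to 11.48 in wild-type and from 8.61 to 9.17 in PWS-IC del arrays. The arrays highest in striatal genes were thus also those highest in bulb genes.

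The mean of the cerebellar genes was highest in the arrays at the low end. As a mean over 11 measured genes PWS-IC del 2 stood at 2.73 and wild-type 3 at 0.62, the low pair for the members, against -0.99 to -0.39 in the other 5 arrays. The r with the members' mean was -0.77, and -0.83 without the farthest pair. Of 9 tested genes 0 passed, with Neurod1 at 1.25 ± 0.42, Calb1 at 0.35 ± 0.15, Car8 at 0.99 ± 0.77 and Ppp1r17 at 1.05 ± 1.13. Each of these was highest in PWS-IC del 2, but they differed in wild-type 3. There Car8 was at 9.85 and Ppp1r17 at 7.24, against 8.54 to 8.97 and 4.78 to 6.97 in the other 5 arrays. Neurod1 and Calb1 were at 9.38 and 12.29 in wild-type 3. They were higher in wild-type 4, PWS-IC del 1 and PWS-IC del 3, at 9.58 to 10.01 and 12.42 to 12.49. The log2 of the summed genes was 13.00 to 14.27 in wild-type and 13.10 to 17.10 in PWS-IC del arrays.

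Midbrain, thalamic and hindbrain genes split the arrays in another way. The midbrain dopamine neuron list, the source of striatal dopamine, stood at -0.85 and -0.70 in wild-type 1 and 2 and -1.36 in PWS-IC del 3, and at 0.39 to 0.97 in the other 4. Its log2 sum was 11.32 to 13.14 in wild-type and 10.80 to 13.20 in PWS-IC del arrays. The split was not shared by every gene of the list. Slc18a2, the vesicular monoamine transporter gene, was at 6.53 to 6.86 in those 3 arrays against 8.69 to 9.76, and Aldh1a1 at 9.62 to 9.79 against 11.11 to 11.81. Th, the rate-limiting enzyme of dopamine synthesis, was low in PWS-IC del 3 alone, at 6.05 against 8.62 to 9.56, and Pitx3 was at 6.95, 7.16 and 6.69 against 6.49 to 6.98. Thalamic genes were at -0.79, -0.77 and -1.09 in the same 3 arrays and 0.27 to 1.09 elsewhere, with Lef1 at 7.83 to 8.33 against 8.64 to 9.57, Prkcd at 7.81 to 8.55 against 9.27 to 11.16, Tnnt1 at 7.22 to 7.54 against 8.13 to 9.70 and Zic4 at 6.44 to 6.53 against 6.72 to 6.99. Hindbrain and spinal cord genes were at -0.55, -0.50 and -0.60 against 0.11 to 0.64, with Tph2, the serotonin synthesis enzyme gene, at 4.51 to 5.31 against 7.82 to 10.11 and Glra1, a glycine receptor gene, at 4.94 to 5.96 against 7.34 to 8.07. Hoxa3 ran otherwise, at 8.68 and 8.47 in wild-type 1 and 2 against 8.12 to 8.38 in the other 5, and Hoxa5 stayed within 7.35 to 7.64 in all 7. In these 3 arrays the members' mean was 1.05, 0.49 and -0.03, so PWS-IC del 3 shared the low means of these lists without the high mean of the members. Cortical genes were at 0.44 in PWS-IC del 3 and at -0.36 to 0.27 elsewhere.

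Tissue from outside the brain was also read. Skeletal muscle genes were at 2.40 in wild-type 1 and 1.75 in wild-type 3, the highest and the lowest wild-type arrays for the members, and at -1.04 to -0.65 in the others. Their log2 sum ran from 10.09 to 13.22 in wild-type and from 9.77 to 10.25 in PWS-IC del arrays. Without wild-type 1 and 3, 8 of the 8 members were below 0 with a median of -0.72. Choroid plexus genes were at -1.29 and -1.27 in wild-type 1 and 2 and at -0.40 to 1.24 elsewhere, and pituitary genes were at 1.19 in wild-type 3 and -0.28 to -0.11 elsewhere.

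**Figure D4:**
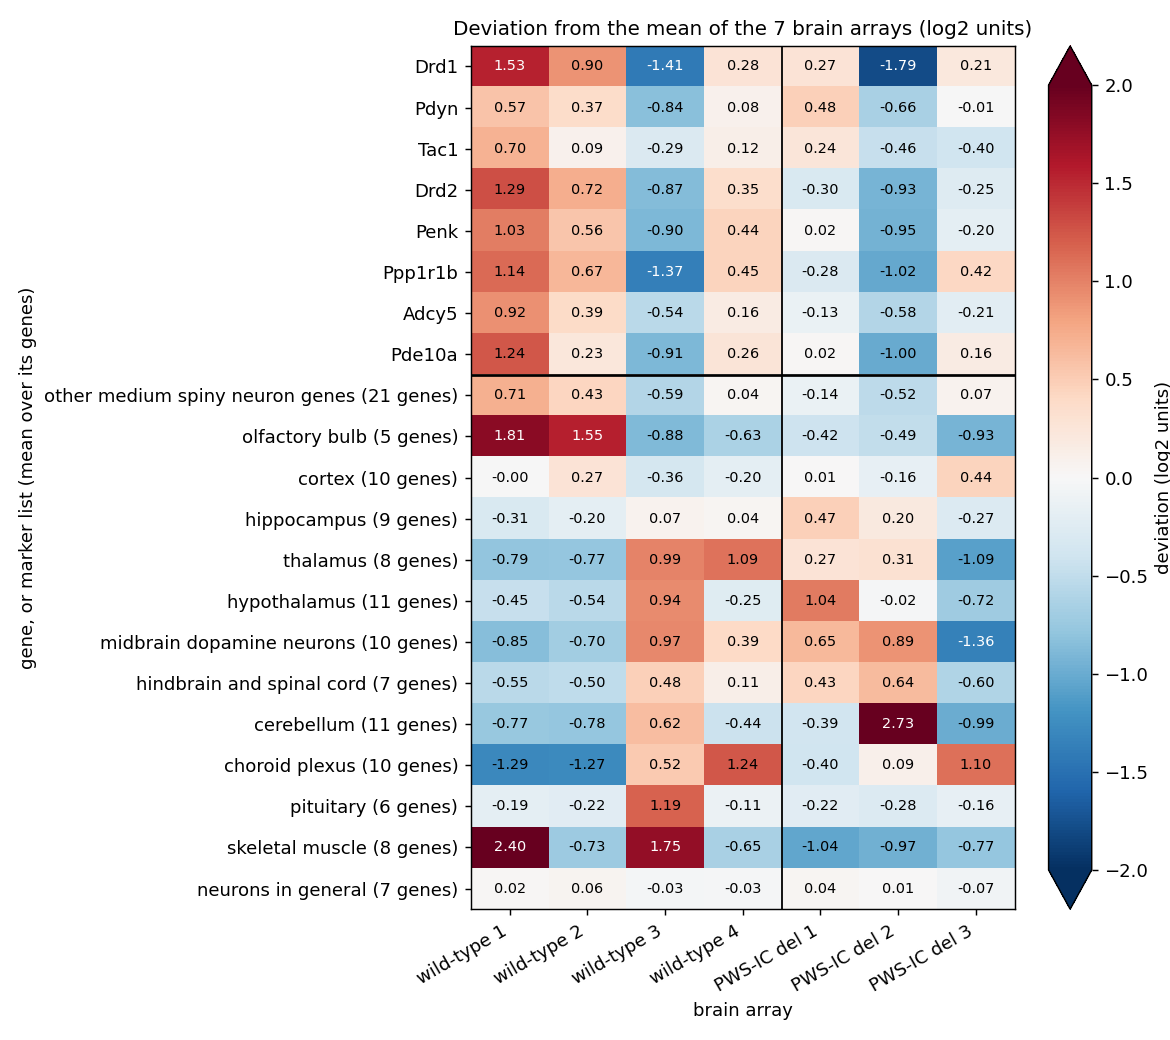
Deviation from the mean of the 7 brain arrays, in log2 units, of the 8 members (upper rows) and of marker lists averaged over the stated number of genes (lower rows); columns are arrays, red is above and blue below the mean, and colours saturate at -2 and 2. The members share a high column in wild-type 1 and low columns in wild-type 3 and PWS-IC del 2, and neurons in general stay within -0.07 to 0.06.

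In muscle, where these genes serve as background, 5 of the 8 passed the filter on low values and 0 of the 5 passed the adjusted threshold, against 0.117% of tested genes. Pdyn, Drd2 and Ppp1r1b stayed below the filter, with means from 5.38 to 6.04 for wild-type muscle and from 5.47 to 5.92 for PWS-IC del muscle. Penk had levels of 7.23, 8.12, 7.36 and 6.99 in wild-type and 8.51, 8.31 and 8.14 in PWS-IC del muscle, with every mutant just above the highest wild-type array. The difference was 0.90 ± 0.24 (95% interval 0.34 to 1.45; limma adjusted p = 0.224, unadjusted p = 0.00561). Without wild-type 2 it was 1.13 ± 0.13 with an adjusted p of 0.0326, and with array quality weights 0.96 with an adjusted p of 0.0187, in a fit where 1862 of the 13645 tested genes passed against 16 without weights. Over the other alternatives the adjusted p lay between 0.154 and 0.518. Groups did not overlap for 12.2% of tested genes in muscle, and for Penk and Drd1 among the 5. The same 2 genes had an unadjusted p under 0.05, as did 11.9% of tested genes. Among the 17 member probe sets, groups were apart for 4, against 10.6% of all probe sets, and 0 passed the adjusted threshold, against 0.0644%. The difference for Penk in brain minus that in muscle was -1.55 ± 0.54 in a joint fit (adjusted p = 0.628), where 0.0879% of tested genes passed.

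Drd1 read 6.39, 6.23, 7.49 and 6.63 in wild-type and 6.06, 5.79 and 6.16 in PWS-IC del muscle on its chosen probe set, a difference of -0.68 ± 0.27 (adjusted p = 0.379, and 0.0318 with array quality weights). Its other probe set was at 4.00 to 4.60 and 4.31 to 4.70, a difference of 0.21 ± 0.15 in the other direction. These levels were near the lowest that the scale allows. Tac1 was at 9.80 in wild-type 2 with the remaining wild-type arrays at 7.33 to 7.60 and mutants at 7.26 to 7.41, a difference of -0.71 ± 0.54 (adjusted p = 0.632). Wild-type 2 was also the highest muscle array for Pde10a, at 7.50, and Adcy5, at 7.40. Pan-neuronal genes were at 1.24 in this array and -0.75 to 0.44 in the other 6, and oligodendrocyte genes at 0.51 and -0.34 to 0.26. Their part in these levels was not tested.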

How the data were processed

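RNA of 14 samples, 7 of brain and 7 of muscle, was measured on 1 array each. The authors deposited 1 intensity value per probe set and array on a linear scale, made with PLIER and the Affymetrix Expression Console, per the submitters' processing notes. The sources used here give no version, setting or normalization step. The values are not counts, so the number of arrays limits the precision. Replicates are biological per the labels; where some share a source, p-values measure only the spread between these samples.

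Values were taken as log2(intensity + 16). The 64 control probe sets were left out. Each gene was represented by the probe set, among the 34958 with 1 symbol, that had the highest mean over the 14 arrays; the 932 that list several symbols were not used for gene names. Symbols come from the platform annotation, and 8 of 8 measured members matched RefSeq by Entrez number. Genes below the 0.25 quantile of means were not tested. Genotypes were compared within each tissue, and wild-type brain with wild-type muscle, using lmFit and eBayes of limma 3.58.1 (R 4.3.3), 2-sided, with Benjamini-Hochberg adjustment over all genes and a threshold of 0.05. Member probe sets were tested in fits over all 45037 non-control probe sets. The fits were tested on simulated data with independent noise for each probe set and array, which lacks the shared movement of genes seen over the brain arrays. A deviation is an array's level minus the mean of the 7 arrays of its tissue, and a list value is its mean over the list.

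The members and the 22 lists (203 names, 189 measured) were chosen with earlier results of these data known, and some left-out pairs of arrays likewise. Named genes were all members, up to 4 tested genes with the smallest brain p of a list, with Ebf1 added after its values were seen, and the 10 genes most like the members' mean. Alternatives covered the pseudocount, normalization, filter, probe set choice, array weights, intensity trend, joint fit, replicate block, left-out arrays and a striatal covariate.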

Additional observations from a re-analysis of the deposited data

Results flagged for a closer look

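In wild-type brain, the Pde10a probe set 1432490_a_at was at 9.40 in wild-type 1, far above the nearest of the other 3 arrays at 6.71. In wild-type muscle, Tac1 was at 9.80 in wild-type 2, with the next array at 7.60. The Pde10a probe set 1419389_at was at 5.01 in wild-type muscle 4, below the next array at 5.75. These 3 arrays stood apart by Dixon's criterion among 34 groups of 4 examined, and chance alone passes it in about 5% of groups.

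For Penk every PWS-IC del array lay below the wild-type mean in brain and above it in muscle, while the genotype difference passed in neither tissue. The brain difference minus the muscle difference was -1.55 ± 0.54 (SE) in a joint limma fit of all 14 arrays, chosen after seeing the data. It did not pass (adjusted p = 0.628, unadjusted p = 0.0127), where 0.0879% of tested genes did.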

How the results depend on the processing

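In brain, 0 members and 0 member probe sets passed under every alternative run, and 163 of 175 alternative values of single members kept their direction. Of these values 12 reversed. Without wild-type 1 and 2, Drd1 was at 0.13, Pde10a at 0.049, Pdyn at 0.32 and Ppp1r1b at 0.17. With the striatal covariate these were at 0.078, 0.056, 0.28 and 0.16. Array quality weights gave 0.30 for Pdyn and 0.012 for Tac1. Leaving out 1 array at a time moved Pdyn over -0.40 to 0.19, and it was above 0 without wild-type 1 (0.07) or PWS-IC del 2 (0.19). The same fits gave -1.34 to -0.09 for Drd1, -1.28 to -0.56 for Drd2 and -1.05 to -0.37 for Penk. The cause of these shifts was not tested.

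The brain count over all genes, 9, was 3 with the replicate block, 5 without wild-type 1 and 3, and 6 to 7 with 1 array left out. The muscle count, 16, was 1862 with array quality weights, 29 with a filter at the 0.5 quantile and also with a pseudocount of 64, 59 with an intensity trend, 39 in the joint fit, 25 after median centring, 8 with no filter, 46 after quantile normalization, 2 with the replicate block and 6 to 26 with 1 array left out. Members passing in muscle numbered 2 with array quality weights and 0 to 1 with 1 array left out, the 1 being Penk without wild-type 2. Muscle Adcy5 (-0.14) was at 0.0076 with array quality weights and ranged from -0.27 to 0.014 with 1 array left out. In the comparison of tissues all 138 alternative values of members that stayed above the filter kept direction and call. With 1 array left out, Pdyn stayed above it in 5 of 8 fits, and 7 to 8 members passed. The median r between members was 0.89 to 0.95 with 1 array left out.

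The replicate numbers showed no pairing of the samples in brain, and muscle left it unsettled. Same-numbered brain arrays of both genotypes had r of -0.06, -0.35 and -0.52 between their deviations, muscle arrays 0.08, 0.52 and 0.01, and 0 of 6 brain and 4 of 6 muscle arrays correlated best with their own number. Wild-type brain and muscle arrays of the same number had r of -0.02 to 0.01, and 2 of 8 correlated best with their own number. With the block the members' median difference in brain was -0.51. Files used here carry no detection calls, so the muscle level stands in for the background of each probe set.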

Other observations

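Receptors for the peptides that medium spiny neurons release had a median difference of -0.04 in brain over 5 tested genes, and 0 passed. Oprk1, the receptor gene for dynorphin, was at 7.86, 7.78, 7.70 and 7.55 in wild-type and 7.56, 7.08 and 7.10 in PWS-IC del brain, a difference of -0.48 ± 0.14 (SE; limma adjusted p = 0.556, unadjusted p = 0.00869). Wild-type 4 and PWS-IC del 1 met at the boundary of the groups. Tacr2, a neurokinin receptor gene, was at -0.07 ± 0.12, Oprm1, the receptor gene for enkephalins among other opioids, at -0.04 ± 0.16, and Tacr3, another neurokinin receptor gene, at 0.42 ± 0.63.

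Striatal interneuron genes did not share the members' order of arrays. Over 8 measured genes the list lay between -0.15 and 0.28, and its r with the members' mean was 0.28 over the 7 brain arrays (rho = 0.43). Of 4 tested genes 0 passed, with Pvalb at 0.49 ± 0.28, Sst at 0.09 ± 0.10, Nos1 at -0.14 ± 0.29 and Npy at 0.13 ± 0.35. These 4 genes also mark interneurons of cortex and other regions, and Chat, Slc18a3, Slc5a7 and Lhx8 stayed below the filter on low values. The list mean therefore cannot show how striatal interneurons themselves moved.

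Lists of other regions and cells had median differences in brain on both sides of 0. Hippocampal genes, 9 tested, had a median difference of 0.18, and hypothalamic genes, 10 tested, one of 0.17. Among 5 astrocyte genes the median was 0.22, among 5 endothelial genes -0.44, and among 6 oligodendrocyte genes -0.05. Of 6 further dopamine and adenosine receptor genes 3 were measured and 0 passed the filter on low values. The medians of the region lists shown by array above were 0.22 for midbrain dopamine neurons, 0.10 for cortex, -0.14 for thalamus, -0.89 for olfactory bulb, 0.74 for cerebellum, -0.01 for hindbrain and spinal cord and 0.57 for choroid plexus. They were -1.61 for skeletal muscle, -0.78 for pituitary and -0.02 for pan-neuronal genes.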
